A study of Mus musculus with 16 samples.

Results

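The 7 genes Pax2, Pax5, Pax8, En1, En2, Gbx2 and Egr2, which pattern the midbrain and hindbrain, were followed across 4 groups of mouse embryoid bodies. They were chosen by name, as the loci whose gene name in the deposited tables equals one of these symbols. Each symbol matched 1 locus, so they make up 7 of 23282 named loci, and all 7 passed the filter on low counts that left 16130 loci for testing.

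Embryoid bodies are clusters of differentiating stem cells grown afloat. SFEBq, in which dissociated cells reaggregate quickly in medium without serum, was used to make them from a mouse embryonic stem cell line with GFP knocked in at Rx (Rax), an eye field gene. All groups were kept in GMEM with 5% KSR (knockout serum replacement), received 2% matrigel, a basement membrane extract, on day 1, and were taken for RNA sequencing on day 6. WT was wild type for Wdr5 and untreated. KO was Wdr5 knockout without doxycycline, and the series title names clone #3, so a single clone stands for the knockout. The T12h rescue and the T48h rescue had the same Wdr5 KO genotype and were given doxycycline, labelled as added at T12h or T48h, to induce human WDR5. T12h and T48h alone also stand for these groups, which like the others were taken on day 6. WT had no doxycycline, so the rescues differ from WT in the drug and the transgene as well as in the clone. Wdr5 encodes a scaffold subunit of the COMPASS/MLL complexes, which methylate histone H3.

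In the embryo, Otx2 in front and Gbx2 behind meet at the border of midbrain and hindbrain. The isthmic organizer forms there and releases Fgf8 and Wnt1. Pax2, Pax5, Pax8, En1 and En2 are transcription factors that set up and maintain this territory and the midbrain and cerebellum on its sides, while Egr2 (Krox20) marks alternating segments of the hindbrain, the rhombomeres. Several have other sites: Pax2 is made in the optic stalk, Pax2 and Pax8 in kidney and otic precursors, Pax8 in the thyroid, Pax5 in B cells, Gbx2 in naive pluripotent cells, and Egr2 in Schwann cells and as an early response to growth factors.

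Promoters are shown for Pax2 and for 3 genes that fell where it rose, in the T12h rescue against KO, namely Gbx2, En1 and Pax8. Each window runs from 250 bases before to 50 after a start site on its own strand, taken from RefSeq on build GRCm38.p6. Capitals mark CG dinucleotides, the CpG sites found densely in CpG islands, which COMPASS/MLL complexes are known to occupy. The windows are chr19:44756656-44756955 on the plus strand for Pax2, chr1:89931127-89931426 on the minus strand for Gbx2, chr1:120602237-120602536 on the plus strand for En1 and chr2:24475550-24475849 on the minus strand for Pax8.
Pax2: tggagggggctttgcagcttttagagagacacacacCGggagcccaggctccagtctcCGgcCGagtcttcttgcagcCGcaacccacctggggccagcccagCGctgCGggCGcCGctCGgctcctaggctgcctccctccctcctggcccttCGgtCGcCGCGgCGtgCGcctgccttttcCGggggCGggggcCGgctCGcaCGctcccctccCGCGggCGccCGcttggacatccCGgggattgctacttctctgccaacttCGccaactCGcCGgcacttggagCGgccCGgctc
Gbx2: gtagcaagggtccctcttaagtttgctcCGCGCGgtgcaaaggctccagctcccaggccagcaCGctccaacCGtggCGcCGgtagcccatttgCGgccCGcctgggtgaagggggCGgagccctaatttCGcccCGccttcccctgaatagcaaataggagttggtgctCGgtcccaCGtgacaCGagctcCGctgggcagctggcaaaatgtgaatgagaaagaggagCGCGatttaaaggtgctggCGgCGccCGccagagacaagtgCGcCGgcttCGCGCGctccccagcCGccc
En1: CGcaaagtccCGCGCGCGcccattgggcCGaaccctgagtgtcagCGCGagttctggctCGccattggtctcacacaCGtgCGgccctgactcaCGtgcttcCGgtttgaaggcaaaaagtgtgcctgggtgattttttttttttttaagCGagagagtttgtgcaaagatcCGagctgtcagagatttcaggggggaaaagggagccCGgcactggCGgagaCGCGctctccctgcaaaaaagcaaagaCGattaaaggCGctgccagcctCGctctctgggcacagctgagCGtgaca
Pax8: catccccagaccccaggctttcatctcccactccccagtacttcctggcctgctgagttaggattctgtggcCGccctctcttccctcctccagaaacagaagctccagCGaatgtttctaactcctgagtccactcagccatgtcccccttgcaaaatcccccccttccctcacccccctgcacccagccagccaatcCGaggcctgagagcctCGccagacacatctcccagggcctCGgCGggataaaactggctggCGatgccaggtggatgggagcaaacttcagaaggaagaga

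The Pax2 window held 30 CG dinucleotides, that of Gbx2 27, that of En1 23 and that of Pax8 7, against a median of 7 over 32817 promoters. Of all promoters, 11.7% held at least as many as Pax2, 15.5% as Gbx2, 21.5% as En1 and 52.1% as Pax8. Pax2 has other annotated starts, and the window shown is the one whose start lies inside the measured locus. The Pax8 start lies just outside its locus. Pax5 and Egr2 also matched, and En2 did not, so that 6 of 7 genes had a promoter, in 12 windows. The homeodomain core TAATTA, the Otx-type core GGATTA and the TCF/LEF core ATCAAAG were searched on both strands. None of the 12 windows held any of them, while 5.30%, 7.06% and 3.73% of all promoters did. The absence of these letters from a window says nothing about the factors.

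The labels list 16 samples, as 2 biological duplicates of each group in 2 technical runs. The technical columns of a duplicate were summed, which gave 8 libraries with n = 2 per group, called a and b with no order. They held 32476672 to 65687435 estimated fragment counts in named loci. Whether the duplicates were separate cultures is not stated, so a p-value covers only the library-to-library spread, some of which may be technical. Levels of a gene across libraries are CPM, counts scaled to a common TMM-adjusted library size. A library with 3 counts, the limit that a count of 0 allows, stood at 0.0439 to 0.089 CPM, and such limits cover counting error only. Fold changes are log2 values ± SE from edgeR's quasi-likelihood test, called at an adjusted p under 0.05 over all tested loci. Wdr5 averaged 186 CPM for WT, 30.5 for KO, 333 for T12h and 287 for T48h, and reads of human WDR5 that aligned to the mouse gene are part of these values. The tables do not separate cell types, and fewer cells of a type and less RNA per cell cannot be told apart.

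Against WT, the KO had lost most Pax2 message while En2 and Gbx2 rose. The T12h rescue had the reverse pattern, with Pax2 above its WT level and En1, En2 and Pax8 far below WT. The T48h rescue had almost no Pax2 and little En2 or Pax8, with En1 between the WT libraries. The 7 genes did not move as 1 block: in the T12h rescue against KO, Pax2 and Egr2 rose where Pax8, En1, En2 and Gbx2 fell. Of all tested loci, 32.8% were called higher and 32.1% lower in that comparison. The Egr2 call rests on 7 and 0 counts in the KO libraries.

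**Figure D1:**
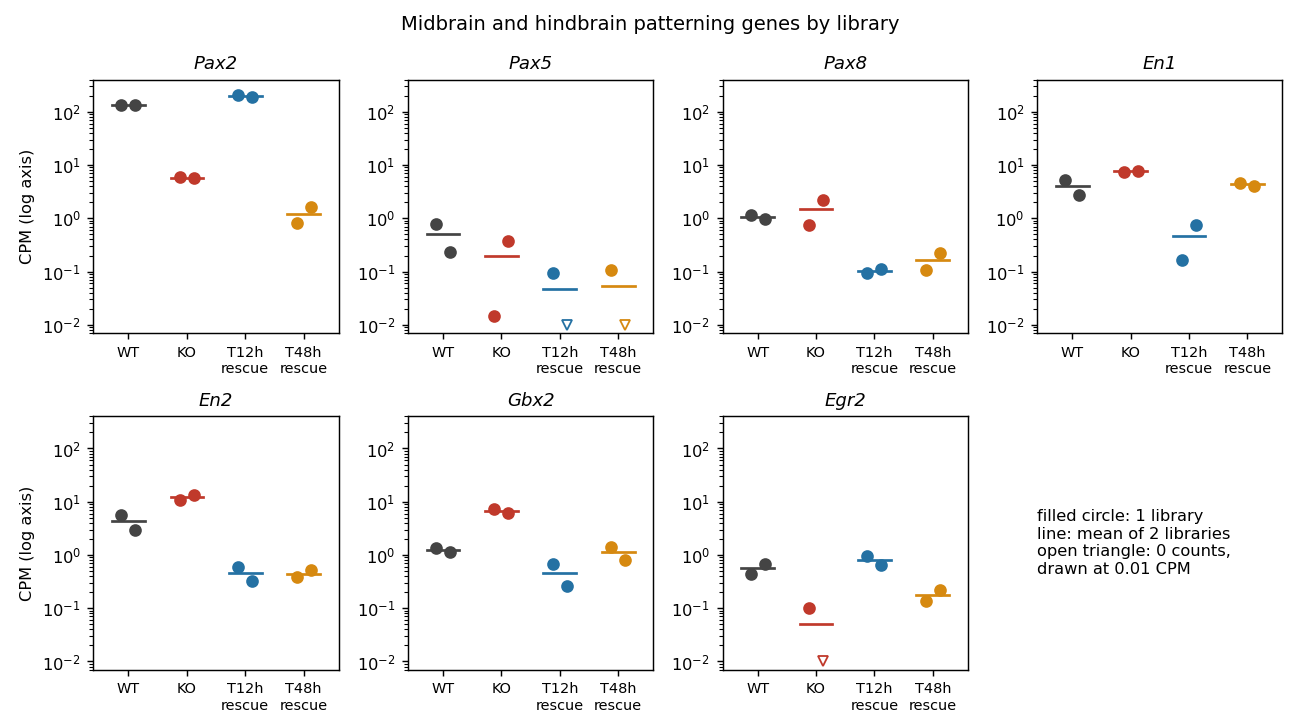
CPM of each gene in the 8 libraries on a log scale, by group, with points for the 2 libraries of a group and a bar for their mean. Pax2 stood at 132.3 and 136.3 CPM in WT and at 0.817 and 1.618 CPM in the T48h rescue, while En2 was highest in the KO at 10.75 and 13.41 CPM.

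Pax2 (chromosome 19, 44756506 to 44838253 on mm10, plus strand) encodes a paired-box factor of the midbrain-hindbrain boundary, the optic stalk and the kidney. It had 132.3 and 136.3 CPM in WT libraries, 5.842 and 5.612 in those of the KO, 203.5 and 190.8 for T12h and 0.817 and 1.618 for T48h. No group overlapped another. Pax2 fell in the KO by 4.55 ± 0.14 on the log2 scale against WT (edgeR adjusted p = 2.18e-11), a 23.3-fold lower level. The T12h rescue exceeded the KO by 5.10 ± 0.14 (edgeR adjusted p = 8.06e-12) and WT by 0.55 ± 0.11 (edgeR adjusted p = 0.00461). The excess over WT is a small one, of 1.47-fold, and it missed the threshold in 3 of 13 alternatives. These were limma on log2(FPKM + 0.1) (limma adjusted p = 0.239), without WT library a (log2 fold change 0.53) and without T12h library a (0.50). The T48h rescue did not bring Pax2 back. Its log2 fold change was -2.21 ± 0.19 even against the KO (edgeR adjusted p = 3.05e-07) and -6.76 ± 0.17 against WT (edgeR adjusted p = 4.32e-12).

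Pax5 (chromosome 4, 44531506 to 44710440, minus strand), which acts with Pax2 in the midbrain and is the master regulator of B cell identity, was barely detected. It had 28 and 8 counts in the WT libraries, 1 and 14 in those of the KO, 5 and 0 for T12h and 4 and 0 for T48h. The KO library with 14 counts lay above the lower WT library in CPM, and both rescues lay below both WT libraries. None of the 6 comparisons passed the test for Pax5, with adjusted p from 0.131 to 0.973. For the T12h rescue against WT the summed counts were 10.3-fold lower, with a 95% exact binomial interval of 4.01 to 33.5 that covers counting error only. That interval leaves out the spread between replicates.

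Pax8 (chromosome 2, 24420560 to 24475566, minus strand) acts with Pax2 in the otic and kidney fields. It had 1.165 and 0.9497 CPM in WT libraries, 0.7614 and 2.239 in those of the KO, 0.09254 and 0.1101 for T12h and 0.1089 and 0.2206 for T48h. The KO libraries lay on either side of WT, whereas both rescues lay below every WT and KO library. Against the KO, Pax8 fell by 3.84 ± 0.84 on the log2 scale under the T12h rescue (edgeR adjusted p = 0.00131) and by 3.14 ± 0.81 under the T48h one (edgeR adjusted p = 0.00392). Against WT the log2 fold changes were -3.35 ± 0.84 (edgeR adjusted p = 0.0174) and -2.65 ± 0.81 (edgeR adjusted p = 0.016). These calls rest on 10 counts for T12h and 13 for T48h. Without KO library b the second call against the KO missed the threshold (adjusted p = 0.0588). Those against WT missed it with limma on log2(FPKM + 1) (limma adjusted p = 0.135 for T12h and 0.0767 for T48h). They also missed it without either WT library (log2 fold changes from -3.50 to -2.54). The T12h call against WT was lost without either T12h library (-3.23 and -3.48), and the T48h one without T48h library a (-2.28).

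En1 (chromosome 1, 120602487 to 120607991, plus strand) is the engrailed homeobox gene on which the early midbrain and anterior hindbrain depend. It had 5.186 and 2.73 CPM in WT libraries, 7.438 and 7.824 in those of the KO, 0.1666 and 0.749 for T12h and 4.548 and 4.093 for T48h. The T12h libraries were the lowest, and those of the T48h rescue lay between the WT libraries. The T12h rescue had log2 fold changes of -4.09 ± 0.52 against KO (edgeR adjusted p = 1.47e-05) and -3.14 ± 0.52 against WT (edgeR adjusted p = 0.00132) for En1. The KO lay above both WT libraries at a log2 fold change of 0.94 ± 0.44, which did not pass the test (edgeR adjusted p = 0.0769). It did pass in 6 of 13 alternatives, with adjusted p over all of them from 0.00824 to 0.42. The T48h rescue did not pass against WT (log2 fold change 0.12, edgeR adjusted p = 0.846) or against the KO (-0.82 ± 0.44, edgeR adjusted p = 0.114). The ratio of T48h to WT had a 95% counting interval of 0.916 to 1.27.

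En2 (chromosome 5, 28165696 to 28172166, plus strand), the second engrailed gene, is needed for cerebellar growth and foliation. It had 5.547 and 2.997 CPM in WT libraries, 10.75 and 13.41 in those of the KO, 0.5922 and 0.3304 for T12h and 0.3813 and 0.5147 for T48h. The KO libraries were the highest, and both rescues lay far below WT. En2 rose in the KO by 1.5 ± 0.34 (log2 scale, edgeR adjusted p = 0.00191). The T12h rescue lay 24.7-fold below the KO and the T48h rescue 25.9-fold (edgeR adjusted p = 3.86e-07 for each). Against WT the log2 fold changes were -3.19 ± 0.40 (edgeR adjusted p = 0.000186) and -3.24 ± 0.41 (edgeR adjusted p = 2.41e-05). A difference between the rescues was not detectable (log2 fold change -0.05 ± 0.45, edgeR adjusted p = 0.94), with a 95% counting interval of 0.599 to 1.51 for the ratio of T48h to T12h.

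The level of En1 relative to En2 was highest in the T48h rescue. On the per-length scale of FPKM, the ratio of En1 to En2 was 1.95 and 2.32 for WT, 1.28 and 1.37 for KO, and 29.2 and 16.5 for T48h. In the T12h rescue it was 0.4 and 4.16, from 9 and 34 counts of En1 and 32 and 15 of En2. The T48h ratios also rest on few counts of En2, 14 and 21, with 167 of En1 in each library. The T48h libraries lay above all the others in this ratio, which was not tested.

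Gbx2 (chromosome 1, 89927962 to 89931176, minus strand) sets the hindbrain side of the boundary and is also a gene of naive pluripotency. It had 1.359 and 1.157 CPM in WT libraries, 7.395 and 6.097 in those of the KO, 0.6663 and 0.2644 for T12h and 1.443 and 0.8088 for T48h. The KO stood above all other libraries, and the T48h libraries lay on either side of WT. Gbx2 rose in the KO by 2.42 ± 0.46 on the log2 scale, or 5.5-fold (edgeR adjusted p = 0.000431). Against the KO its log2 fold change was -3.83 ± 0.49 for the T12h rescue (edgeR adjusted p = 1.46e-05). For the T48h rescue it was -2.59 ± 0.46 (edgeR adjusted p = 0.000244). Against WT neither rescue passed, at -1.41 ± 0.48 for T12h (edgeR adjusted p = 0.0731) and -0.17 ± 0.46 for T48h (edgeR adjusted p = 0.8). Gbx2 did pass in the T12h rescue against WT in 3 of 13 alternatives, without a filter on low counts (adjusted p = 0.0179), with DESeq2 (adjusted p = 0.0477) and without T12h library a (log2 fold change -2.24, adjusted p = 0.0371).

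Egr2 (chromosome 10, 67537869 to 67542188, plus strand), a zinc finger gene of hindbrain rhombomeres, was a gene of few counts in every group. It had 16 and 23 counts in the WT libraries, 7 and 0 in those of the KO, 51 and 29 for T12h and 5 and 9 for T48h, or 0.4438 and 0.6826, 0.1025 and 0, 0.9439 and 0.6389, and 0.1362 and 0.2206 CPM. WT and the T12h rescue were the higher groups and overlapped. Egr2 fell by 3.18 ± 1.07 on the log2 scale in the KO (edgeR adjusted p = 0.0196) and rose by 3.67 ± 1.07 in the T12h rescue against the KO (edgeR adjusted p = 0.00866). The first call was lost with 1 technical column per replicate (edgeR adjusted p = 0.068). It was also lost without WT library a (log2 fold change -3.50), WT library b (-2.91) or KO library b (-2.44). The second call was lost without T12h library a (log2 fold change 3.42). The T48h rescue did not pass against the KO (log2 fold change 1.54 ± 1.11, edgeR adjusted p = 0.235). It passed without KO library a, the one KO library with any count, at a log2 fold change of 5.85 that depends on the prior count (adjusted p = 0.0411).

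**Figure D2:**
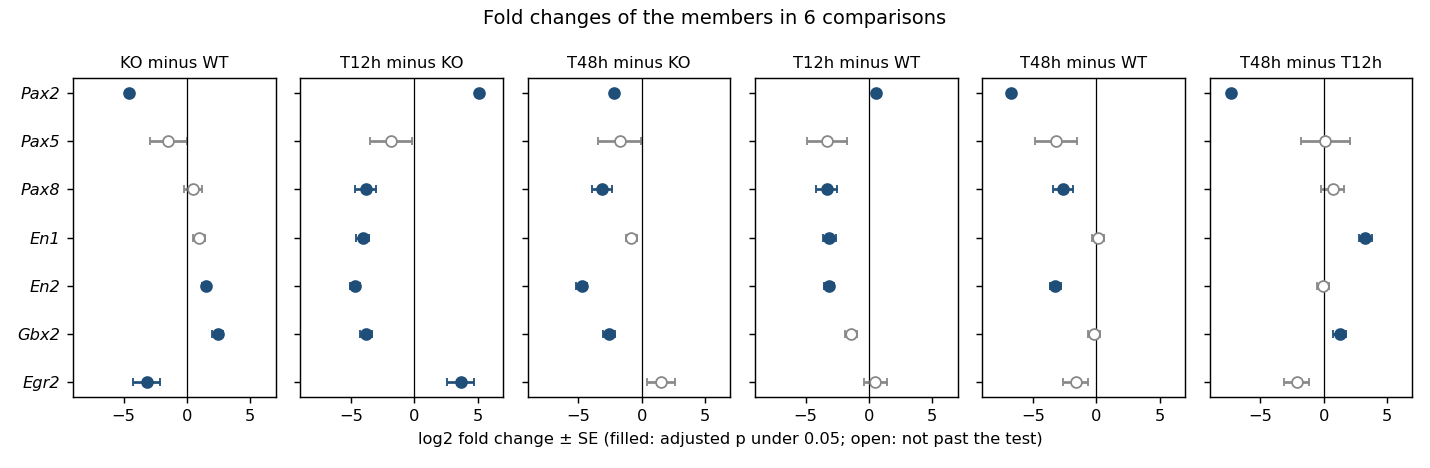
Log2 fold changes of the 7 genes in the 6 comparisons, with bars for the SE from edgeR, filled where the adjusted p was under 0.05. Pax2 ran from 5.10 in the T12h rescue against KO to -7.32 in T48h against T12h, while En2 was at -4.68 and -4.74 in the rescues against KO.

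Counted over the group, 2 genes rose (En2, Gbx2) and 2 fell (Pax2, Egr2) in the KO against WT, and 3 did not pass. At the same threshold 64.1% of all tested loci were called in that comparison, 31.7% higher and 32.4% lower, so 4 of 7 is near the background. In the T12h rescue against KO, Pax2 and Egr2 rose and Pax8, En1, En2 and Gbx2 fell, where 64.8% of loci were called, 32.8% higher and 32.1% lower. In the T48h rescue against KO, 4 fell (Pax2, Pax8, En2, Gbx2) and none rose, where 67.3% were called, 33.2% of all loci lower. The T12h rescue against WT had few calls in all, at 14.0% of loci, 7.90% higher and 6.11% lower, and 4 of 7 genes were among them, with Pax2 higher and Pax8, En1 and En2 lower. In the T48h rescue against WT, Pax2, Pax8 and En2 fell, where 47.3% of loci were called, 23.4% of all loci lower. Median log2 fold changes of the 7 genes in these 5 comparisons were 0.49, -3.83, -2.21, -3.14 and -2.65, against medians of all tested loci between -0.04 and 0.00. In the T48h against the T12h rescue the median was 0.11. The 0.49 is the value of Pax8, which did not pass. Because the genes did not all move in 1 direction, these medians do not stand for a shared shift. The comparisons share libraries and are not independent of each other.

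The rescues were also set against each other. The log2 fold change of Pax2, T48h against T12h, was -7.32 ± 0.17 (edgeR adjusted p = 1.57e-12), a 159.6-fold lower level. En1 was higher in the T48h rescue by 3.27 ± 0.52 (edgeR adjusted p = 0.000158). Gbx2 was higher by 1.25 ± 0.48 (edgeR adjusted p = 0.0471), a call lost in 7 of 13 alternatives. Among these were upper-quartile scaling (edgeR adjusted p = 0.0599) and only the 2 groups compared (edgeR adjusted p = 0.143). It was also lost without T12h library b (log2 fold change 0.70) or T48h library a (0.74). Of all tested loci, 50.2% were called in this comparison, 24.9% higher and 25.3% lower, so these 3 of 7 do not exceed the background. Egr2 did not pass (log2 fold change -2.13 ± 0.98, edgeR adjusted p = 0.0883).

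Levels of the 7 genes were ranked against each other only in FPKM, the deposited values per length of transcript and depth. Sums of gene lists given below add CPM, which are not adjusted for length, so longer transcripts weigh more in them. In WT, Pax2 was the highest of the 7, at a mean of 32.5 FPKM, followed by En1 at 2.19 and En2 at 1.05. In the KO, Pax2 came after 3 other genes in both libraries, at 1.34 FPKM, behind En1 at 4.17, En2 at 3.13 and Gbx2 at 3.03, whose order below En1 differed between the libraries. En1 also led in both T48h libraries, at a mean of 2.41 FPKM. Of the summed FPKM of Pax2, Pax5 and Pax8, Pax2 made up 96.88% and 98.38% for WT, 82.77% and 51.97% for KO, 99.77% and 99.92% for T12h and 60.71% and 85.12% for T48h. The Pax genes of the boundary were thus mostly Pax2 in WT and the T12h rescue, and its share varied widely between the libraries of the other groups.

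**Figure D3:**
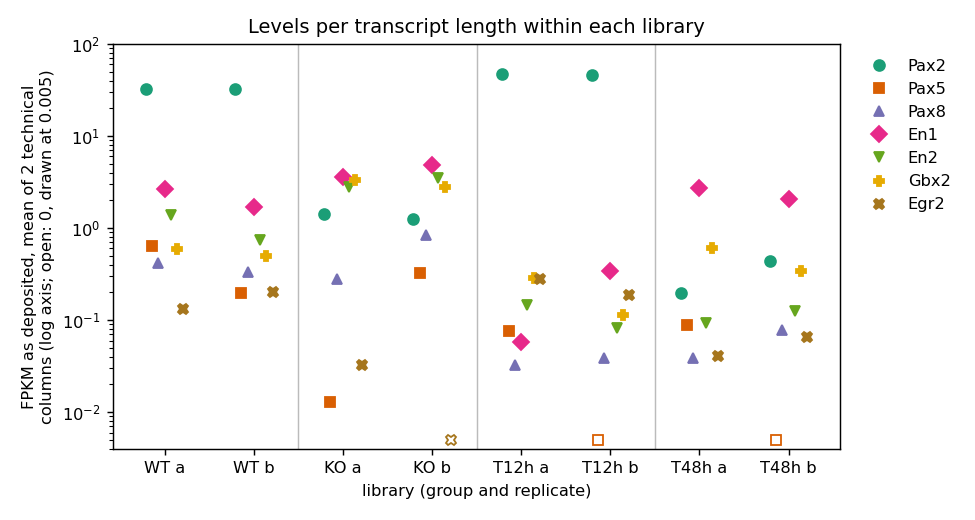
FPKM of the 7 genes per library on a log scale, which allows levels of different genes to be compared. Pax2 was the highest in WT (mean 32.5) and the T12h rescue (mean 46.9), and En1 in the KO (mean 4.17) and the T48h rescue (mean 2.41).

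The genes that run closest to each member over the 8 libraries were sought among about 14118 loci with a single symbol and at least 1 CPM in some group. Likeness was the root mean square difference of log2(CPM + 0.1), centred on each gene's own mean. Nearest to Pax2 were Hmx1 (0.39) and Mab21l1 (0.51), genes known from eye development, with Ptprz1 (0.43), a receptor phosphatase of neural progenitors, between them. Hmx1 averaged 15.1 CPM for WT, 0.364 for KO, 24.2 for T12h and 0.0123 for T48h, and so had the same order of groups as Pax2. The genes nearest to En1 included EU599041 (0.47) and Dppa4 (0.48), a gene of pluripotent cells. Dppa4 averaged 3.56, 13.5, 0.582 and 5.15 CPM in the same order of groups. Nearest to Gbx2 were Slco4a1 (0.28), Abcg1 (0.32) and Gulo (0.32), and to En2 Sntg1 (0.42), Gtsf1l (0.44) and Rbmxl2 (0.46). Pax8 ran closest to Ubash3a (0.49), Prkg2 (0.49) and Tex101 (0.51), Egr2 to Dnahc7b (0.18), Insm1 (0.21) and Nphp4 (0.22), and Pax5 to Gdf7 (0.56), Scarna13 (0.61) and Rpph1 (0.63). Among the 7 genes themselves, En2 and Pax8 were the closest pair at 0.85 and Pax2 and En1 the farthest at 4.27. These are descriptions over 8 libraries, with no test.

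Signals and feedback genes of the isthmic organizer moved in the KO in the direction of En2 and Gbx2 more often than against it. Of 13 such genes tested, 8 rose and 3 fell in the KO against WT, with a median log2 fold change of 1.72 against 0.00 for all tested loci. In that comparison 31.7% of all tested loci were called higher and 32.4% lower. Fgf8, the main organizer signal, averaged 1.21 CPM in WT and 10.7 in the KO, or 3.14 ± 0.31 higher on the log2 scale (edgeR adjusted p = 1.25e-06). Etv4 and Etv5, transcription factors induced by FGF signalling, rose by 2.54 ± 0.27 and 2.01 ± 0.12. The list holds such feedback genes as well as signals, and whether an organizer was present in the KO was not tested. Tle4, a Groucho corepressor, fell by 1.03 ± 0.08. Wnt1, the other organizer signal, named after its values were seen, went the opposite way from Fgf8, at -3.43 ± 0.41 on the log2 scale (edgeR adjusted p = 7.58e-06). Without WT library b the count of genes that rose was 5 in place of 8.

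In the T12h rescue against KO, 10 of the 13 organizer genes fell and 2 rose, with a median of -2.52. In that comparison 32.1% of all tested loci were called lower and 32.8% higher. Fgf8 had a log2 fold change of -3.86 ± 0.32 and Etv4 of -4.47 ± 0.30, while Tle4 rose by 1.19 ± 0.08. Against WT, 8 of 13 fell and none rose in that rescue, 5 of 13 without WT library a or without T12h library a. Of all tested loci, 6.11% were called lower and 7.90% higher in the T12h rescue against WT. In the T48h rescue against KO 9 of the 13 organizer genes fell and 2 rose, with a median of -0.78. There 33.2% of all tested loci were lower and 34.2% higher. Fgf8 did not pass in that comparison (log2 fold change -0.54 ± 0.27, edgeR adjusted p = 0.0933). Fgf8 stayed above WT in the T48h rescue, by 2.60 ± 0.31 (edgeR adjusted p = 1.24e-05), whereas Etv5 was at -0.76 ± 0.12 against WT there (edgeR adjusted p = 0.000179). In the T48h rescue against WT 23.9% of all tested loci were called higher and 23.4% lower. Against WT 2 of the 13 rose and 7 fell in the T48h rescue, 4 without WT library a.

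Midbrain regulators moved in both directions. Of 16 tested, 3 rose and 7 fell in the KO against WT, with a median log2 fold change of -1.26, and this share of calls was near the 64.1% over all loci. Otx2, the homeobox gene of forebrain and midbrain, had 266.4 and 238.6 CPM in WT libraries, 81.81 and 86.49 in those of the KO, 137.9 and 133.6 for T12h and 22.28 and 20.96 for T48h. It was therefore at its lowest in the T48h rescue, at -1.96 ± 0.09 on the log2 scale against the KO (edgeR adjusted p = 3.82e-10). Efna5, an ephrin that forms a gradient in the midbrain roof, fell by 1.93 ± 0.10 in the KO. Meis2, a homeobox gene of the midbrain roof and of the optic vesicle, was at -2.97 ± 0.12 on the log2 scale in the KO and rose by 3.99 ± 0.13 in the T48h rescue against the KO. Msx1, which also marks dorsal neural tube and neural crest, reached 231.4 and 225.2 CPM in the T48h rescue, against 7.433 and 6.262 in WT. In the T48h rescue against KO 9 of 16 rose and 4 fell, where 34.2% of all loci were called higher and 33.2% lower. In the T12h rescue against KO 6 rose and 5 fell, near the 64.8% of all loci called there. The share of all loci called was 14.0% in the T12h rescue against WT and 47.3% in the T48h rescue against WT. Against WT, 1 rose and 8 fell in the T12h rescue (4 fell without WT library a and 5 without WT library b), and 5 rose and 6 fell in the T48h rescue.

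Most loci of the hindbrain list were higher in the T48h rescue than in the other groups. Of 25 loci tested, for 23 of 25 listed genes, 17 rose and 5 fell in the T48h rescue against KO, with a median log2 fold change of 2.46 against 0.00 for all tested loci. Against WT 17 rose and 3 fell, with a median of 2.11, or 2.52 without loci that had at most 3 counts in each of these groups. At the same threshold 34.2% of all tested loci were higher in the T48h rescue than in the KO and 23.9% were higher than in WT. Hoxb2, a Hox gene of the hindbrain from the border of the third rhombomere backward, stood at 43.87 and 40.47 CPM in the T48h rescue and at 0.1542 CPM or less in every other library (log2 fold change 8.49 ± 0.27 against KO, edgeR adjusted p = 3.06e-11). Egr2, a known direct activator of Hoxb2 in the hindbrain, was at 0.1362 and 0.2206 CPM in the T48h libraries. The share of all tested loci called was 64.1% in the KO against WT and 64.8% in the T12h rescue against KO. It was 14.0% in the T12h rescue against WT. Of this list, 8 loci rose and 6 fell in the KO against WT, 5 rose and 8 fell in the T12h rescue against KO, and 2 rose and 4 fell in that rescue against WT, 2 of them without WT library a or T12h library a.

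Other members of the hindbrain list rose in part in the KO. Irx3, an Iroquois homeobox gene of the posterior neural plate, rose there by 3.59 ± 0.16 against WT (edgeR adjusted p = 7.91e-10), fell by 3.98 ± 0.17 in the T12h rescue against KO, and in the T48h rescue was above WT by 3.65 ± 0.16. Meis1, a cofactor of Hox proteins that is also made in the optic vesicle, was at -3.52 ± 0.13 in the KO against WT on the log2 scale. Epha7, an ephrin receptor of rhombomeres and forebrain, was at -3.38 ± 0.13. Both rose in each rescue against the KO, Meis1 by 2.95 ± 0.13 and 3.17 ± 0.13 and Epha7 by 2.46 ± 0.12 and 2.46 ± 0.13.

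**Figure D4:**
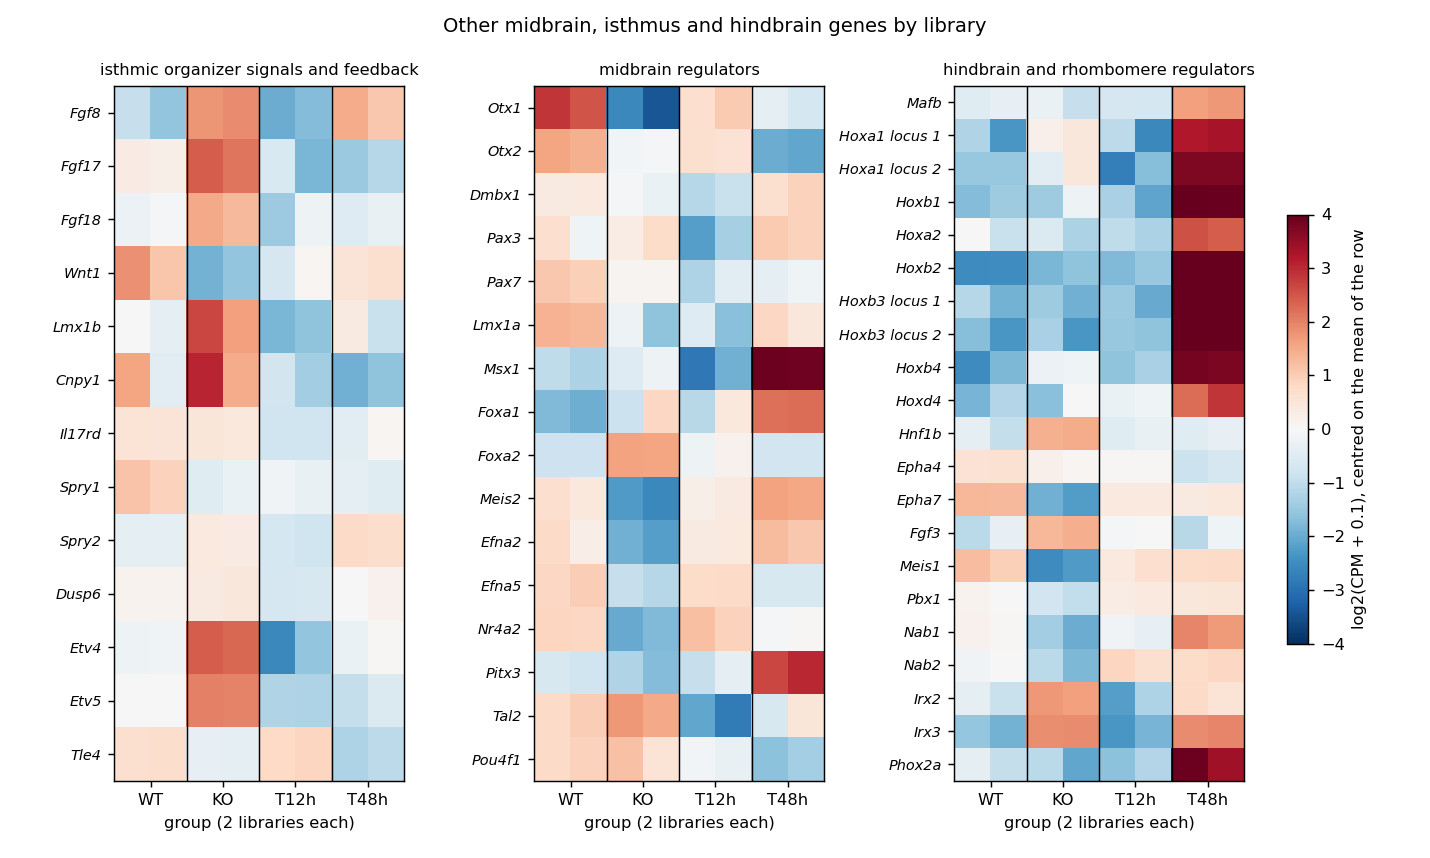
Heat map of log2(CPM + 0.1), centred on the mean of each row, for organizer, midbrain and hindbrain loci with a mean of at least 1 CPM in some group, in the 8 libraries. Fgf8, Etv4 and Etv5 are high in the KO, and Hoxb2 and most other Hox loci are high in the T48h rescue alone among the groups plotted.

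Genes of the anterior forebrain and eye field gave the counterpart. All 11 loci of the 9 listed genes fell in the KO against WT, with a median log2 fold change of -7.19, and 10 of 11 rose in the T12h rescue against KO, with a median of 7.25. Six6, Rax and Six3, homeobox genes of the eye field, rose by 8.15, 8.10 and 7.52 in the T12h rescue against KO. In the T48h rescue against WT 11 of 11 fell. Of all tested loci, 32.4% were called lower in the KO against WT and 32.8% higher in the T12h rescue against KO. In the T48h rescue against WT 23.4% were lower. The summed level of the 11 forebrain and eye field loci was 1350 to 1390 CPM for WT, 14.4 to 18.1 for KO, 1620 to 1670 for T12h and 14.7 to 16.3 for T48h. The KO and T48h ranges overlapped, where those of Pax2 did not.

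Marker lists of the other sites of these genes were read beside them. Of all tested loci, 64.1% were called in the KO against WT. The share was 64.8% for T12h and 67.3% for T48h against KO. It was 47.3% for T48h against WT and 50.2% for T48h against T12h. For Pax2, the 7 optic stalk and ventral optic genes summed to 593 to 645 CPM for WT, 105 to 114 for KO, 700 to 725 for T12h and 58.4 to 59 for T48h. Without Ntn1, an axon guidance gene that did not pass in the KO against WT, the sums were 525 to 575, 32.8 to 41.8, 593 to 611 and 53.7 to 54.9 CPM, with the KO below T48h, whereas Pax2 was higher in the KO than in T48h. Without Bmp7, which did not pass there either, the KO summed to 77.9 to 78.5 CPM and T48h to 16.2 to 16.5. That is the order of Pax2, so the order of KO and T48h depends on the gene left out. Most of the KO sum was Ntn1 and Bmp7, at means of 72 and 31.1 CPM, against 4.47 and 42.4 in T48h. Each other gene of this list averaged at most 3.05 CPM in the KO. In T48h Pax6 averaged 10.9 CPM, and Vax1, Vax2, Nkx2-2 and Aldh1a3 at most 0.389. Of these 7 genes, 4 fell (Vax1, Vax2, Pax6, Aldh1a3), 1 rose (Nkx2-2, by 2.05 ± 0.38) and 2 did not pass (Ntn1, Bmp7) in the KO against WT. In the T12h rescue against KO 5 rose and none fell, and in the T48h rescue against KO 4 fell while Pax6 and Bmp7 rose. These genes are named after their values were seen. Intermediate mesoderm and nephric genes summed to 203 to 231, 199 to 200, 272 to 283 and 213 to 214 CPM in the same order of groups, most of it from Sall1, without which they summed to 42.6 to 59.4, 33.9 to 38.1, 19.5 to 21.5 and 47.3 to 50.1. Of the 10 nephric loci tested, 6 rose and 2 fell in the KO against WT, with a median log2 fold change of 1.57, 2 rose and 5 fell in the T12h rescue against KO, and 6 rose and 2 fell in the T48h rescue against WT, with a median of 3.00. The part of these tissues in the level of Pax2 was not tested. Some genes of the midbrain and boundary also fell with Pax2 in the KO, among them Otx2 (log2 fold change -1.59), Wnt1 (-3.43) and Otx1 (-5.88). Otx1 was named after its values were seen. Others rose, with 8 of the 13 organizer genes higher and 3 lower in the KO against WT. Among the 16 midbrain regulators 3 were higher and 7 lower there. En2 and Gbx2 rose as well. In the T12h rescue against WT, where Pax2 was higher, 4 of the 7 optic genes rose and 1 fell. Of the 13 organizer genes 8 fell and none rose there, and of the 16 midbrain regulators 8 fell and 1 rose. Among all tested loci, 7.90% were called higher and 6.11% lower in that comparison. Whether Pax2 came from an optic or a boundary source was not tested, and the tables do not separate cell types.

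For Gbx2, the 10 naive pluripotency genes summed to 153 to 160 CPM for WT, 555 to 581 for KO, 81.3 to 88.8 for T12h and 117 to 132 for T48h, with the KO highest, as for Gbx2. Without Tbx3 the T12h libraries summed to 67.1 to 72.7 and those of T48h to 42.5 to 47.4 CPM. In the KO 9 of 10 rose and none fell, and in the T12h rescue against KO 10 of 10 fell. Of all tested loci, 31.7% were called higher in the KO against WT and 32.1% lower in the T12h rescue against KO. In T48h against T12h 7 of the 10 fell and 1 rose, where Gbx2 was higher. There 25.3% of all tested loci were called lower and 24.9% higher. The part of these pluripotency genes in the level of Gbx2 was not tested. For Pax8 and Pax2, the 8 otic placode genes summed to 8.4 to 11.3 CPM for WT, 38.6 to 42.3 for KO, 4.22 to 4.85 for T12h and 35.3 to 35.9 for T48h, with a high sum in T48h, where Pax8 was low. Without Gata3 the sums were 26.1 to 26.9 CPM for KO and 18.1 to 18.7 for T48h. Of the 8 otic genes, 1 rose and 3 fell in the T48h rescue against KO, where 67.3% of all loci were called. Against WT 5 rose and none fell in that rescue, where 47.3% were called. Their part in the level of Pax8 was not tested. The 6 thyroid and foregut genes summed to 5.57 to 6.41, 11.1 to 12, 11.7 to 13.6 and 15 to 19.6 CPM, of which 0.98 to 1.3 CPM remained in T48h without Hhex. Without Nkx2-1, 1.8 to 3.75 CPM remained in T12h, and without Tshr 4.99 to 5.46 CPM in the KO. For Pax5, the 8 B cell genes summed to no more than 2.62 CPM in any library, with Rag1 at 0 in the KO and in both rescues.

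For Egr2, neural crest and Schwann cell genes summed to 48 to 54.3 CPM for WT, 67.7 to 71.9 for KO, 38.6 to 40.4 for T12h and 390 to 444 for T48h, where Egr2 was low. Most of the T48h sum was Pmp22, a myelin gene also made elsewhere, at 372.4 and 324.5 CPM, and the other loci summed to 65.8 to 71.9 CPM there and to 65.3 to 69.7 in the KO. Immediate early genes, which respond within minutes to stimulation, summed to 97.5 to 98.5, 206 to 207, 137 to 140 and 151 to 162 CPM, highest in the KO where Egr2 was lowest. Egr1, the relative of Egr2 in that list, was lowest in the KO and highest in the T12h rescue, as Egr2 was. It had 8.792 and 8.636 CPM in WT libraries, 3.221 and 1.133 in those of the KO, 17.88 and 18.86 for T12h and 10.4 and 10.74 for T48h, with log2 fold changes of -1.94 ± 0.33 in the KO against WT (edgeR adjusted p = 0.000165) and 3.02 ± 0.33 in the T12h rescue against KO (edgeR adjusted p = 3.26e-06). The corepressors Nab1 and Nab2, which bind Egr proteins, named after their values were seen, fell by 1.77 ± 0.20 and 1.31 ± 0.21 in the KO. Both rose in the T48h rescue against KO, by 3.51 ± 0.20 and 2.18 ± 0.21, where Egr2 did not pass.

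Within the Pax family, 4 of the 6 other genes listed passed the filter. Pax6, the paired-box gene of the eye and forebrain, had 333 and 289.4 CPM in WT libraries, 1.303 and 0.7284 in those of the KO, 264.8 and 260.5 for T12h and 11.38 and 10.37 for T48h. Its level in the T48h rescue was above the KO by 3.32 ± 0.17 (edgeR adjusted p = 2.14e-09), where Pax2 was below it. Pax3, a gene of the dorsal neural tube, did not pass in the KO against WT (log2 fold change 0.22 ± 0.38, edgeR adjusted p = 0.626). It fell by 2.37 ± 0.42 in the T12h rescue against KO (edgeR adjusted p = 0.00024), as Pax8 did. Of the other En, Gbx and Egr genes listed, 3 of 4 were tested, and Egr1 alone passed in the KO against WT.

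Overlapping annotated genes limit some of these values, since no source used here gives the strand setting of the counting. On the mouse annotation used for names, Pax2 overlaps 3 other genes, Pax5 4, and Pax8, En2 and Gbx2 1 each, while En1 and Egr2 overlap none. Reads of a gene and of its antisense partner cannot be told apart without strand. For Pax5, the overlapping gene 5730488B01Rik on the other strand had 0.804 and 0.356 CPM in WT libraries and 0 in both KO libraries. It had 0.0555 and 0.022 CPM for T12h and 0.245 and 0 for T48h. Pax5 itself had 0.7766 and 0.2374 CPM in WT, and the part of the overlap in this level was not tested. For Pax2, the antisense gene 1700039E22Rik had at most 0.998 CPM in any library, against 132.3 and 136.3 CPM of Pax2 in WT.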

How the data were processed

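RNA of day 6 embryoid bodies was sequenced. The submitters' processing notes name Cufflinks 2.2.1, TopHat2 2.1.1, deepTools, SAMtools 1.5 and build mm10. Which annotation and strand setting were used is not given in these sources. Per the file headers, the deposited tables hold estimated counts and FPKM for 28432 loci. The estimated counts had been multiplied by 1 factor per column, which made 1 fragment worth 0.630 to 1.29. With it divided out, 90.9% to 92.1% of values were whole within 0.02 fragments, and they were rounded to whole numbers. Columns name the group only, so technical columns were paired by agreement within each group (chi-square per degree of freedom 1.60 to 1.83 within pairs, 9.08 to 16.5 between) and summed. The 5143 unnamed loci, with 3.16% to 6.12% of counts, and 8 loci marked as holding too many fragments stayed out, as did 112 companion columns of bounds and status, of which only status was read.

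Counts were tested with edgeR 4.0.16 (R 4.3.3) by the quasi-likelihood F-test with TMM, filterByExpr and Benjamini-Hochberg adjustment over 16130 loci. The 4 groups shared a fit whose sole term was group (4 residual degrees of freedom, common biological coefficient of variation 12.6%). The SE is the absolute log2 fold change divided by the square root of F. The code was tested on simulated data. FPKM, deposited by the authors, order genes within a library and enter limma 3.58.1 as log2(FPKM + 1) or log2(FPKM + 0.1), which understates changes of low genes. Other alternatives were DESeq2 1.42.0, RLE and upper-quartile scaling, no filter, only the compared groups, 1 technical column per replicate, no chromosome 8, each replicate left out and, chosen after seeing the data, at least a 2-fold change.

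The members, the 14 gene lists (132 genes, all found) and the tests were chosen with earlier results of these data known. Named genes are the 7 members, up to 4 genes per patterning, forebrain or family list with the smallest adjusted p in a comparison with KO, and the 3 loci nearest to each member in pattern; others are said to be named after their values were seen. A few genes chosen this way are left unreported. Counts of genes in a list are descriptions, adjusted over all tested loci.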

Additional observations from a re-analysis of the deposited data

Results flagged for a closer look

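The T12h and the T48h rescue differed in their effect against the KO for 3 of the 7 genes, by the test of the difference itself, which equals the comparison of the T48h with the T12h rescue because both share the KO libraries. Of all tested loci 50.2% were called in that comparison, so 3 of 7 is not above the share over all loci. For Pax2 the difference of log2 effects was -7.32 (edgeR adjusted p = 1.57e-12), since Pax2 was above the KO in both T12h libraries and below it in both T48h libraries. For En1 it was 3.27 (edgeR adjusted p = 0.000158), with both T48h libraries above both T12h libraries. For Gbx2 it was 1.25 (edgeR adjusted p = 0.0471), close to the threshold, with no overlap between the T48h libraries (1.443 and 0.8088 CPM) and the T12h libraries (0.6663 and 0.2644 CPM). This call was lost in 7 of 13 alternatives.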

How the results depend on the processing

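The 7 genes in 6 comparisons gave 42 log2 fold changes and 531 values under alternatives, of which 480 kept direction and side of the threshold, 25 lost the call, 16 gained it and 10 changed direction. Of 24 calls, 17 were kept in every alternative run. The 7 calls lost in some alternative were Pax2 in T12h against WT, Egr2 in both its comparisons, Gbx2 in T48h against T12h, and Pax8 in all but T12h against KO.

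Genes called lower in KO against WT numbered 1 with 1 technical column per replicate, and 1 to 2 when each replicate was left out. Genes called higher in T12h against KO numbered 1 to 2, and in T48h against KO 0 to 1, when each replicate was left out. The count higher in T12h against WT was 0 with limma on log2(FPKM + 0.1) and 0 when at least a 2-fold change was asked, and 0 to 1 with each replicate left out. In T48h against T12h the count higher was 1 with upper-quartile scaling, limma on log2(FPKM + 1), limma on log2(FPKM + 0.1), only the 2 groups compared or 1 technical column per replicate, and 1 to 2 with each replicate left out. The count lower there was 2 with either limma setting and with only the 2 groups compared, in each of which Egr2 passed (adjusted p from 0.0138 to 0.0322).

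Direction changed only for values that had not passed the test. With each replicate left out, Pax8 in KO against WT ran from -0.48 to 1.07, Pax5 in T12h against KO from -6.01 to 1.57 and in T48h against KO from -6.08 to 1.68, the sign changing without KO replicate b. In T48h against WT, En1 ran from -0.32 (without WT replicate b) to 0.61 and Gbx2 from -0.67 to 0.18 (without T48h replicate b). In T48h against T12h, En2 was 0.21 with 1 technical column per replicate, and ran from -0.44 to 0.40 with each replicate left out, being above 0 also without T48h replicate a (0.11). Pax5 ran there from -4.21 (without T48h replicate a) to 4.22, and was -0.83 without T12h replicate b. A group left with 1 library is assumed to vary like the others, and the cause of these changes was not tested. No paired analysis was possible because the columns carry no replicate number. Pax5, Pax8 and Egr2 had at most 83 counts in any library, so depth limits their precision.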

Other observations

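The WT libraries differed in boundary genes while their Pax2 levels were close. En1 was 5.186 CPM in WT library a and 2.73 in b, En2 was 5.547 and 2.997, and Pax5 was 0.7766 and 0.2374, and these 3 of the 7 genes were over 1.5-fold higher in a, with Egr2 alone over 1.5-fold higher in b. The gene 5730488B01Rik, which overlaps Pax5, was 0.804 and 0.356 CPM in the same libraries. Of the 13 organizer genes, Fgf8, Wnt1 and Cnpy1 were over 1.5-fold higher in a and none in b, against 4.48% and 4.87% of all tested loci with a mean of at least 0.2 CPM in WT. In the T12h rescue the members did not lean one way, with En2 and Gbx2 higher in a and En1 in b. These genes were singled out after their values were seen, and the values are given with no test.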
